A study of Mus musculus with 46 samples.

Results

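The tumors compared here were hSS2 synovial sarcomas ranked by how much Mki67 messenger RNA each one held. Mki67 encodes Ki-67, a nuclear protein of dividing cells, and Top2a encodes the topoisomerase that untangles chromosomes before they separate. All 37 hSS2 RNA-seq libraries were ranked by Mki67 in CPM (the count divided by the library total, times 1e6). The 12 highest formed a high class and the 12 lowest a low class, so 24 of 37 hSS2 libraries, of 46 libraries in the series, entered the comparison. The other hSS2 libraries, 13 in number, lay between the classes, and 9 hSS1 libraries were not ranked.

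Each library came from a single tumor that arose after TATCre, a cell-permeable Cre protein, was injected into a limb of a young mouse carrying the human fusion gene. That gene was SS18::SSX2 in hSS2 and SS18::SSX1 in hSS1, silent until Cre acted. Every tumor compared, controls included, therefore expressed a fusion and had received Cre. Mice in the floxed groups also carried conditional alleles of a BAF-family chromatin remodeler subunit (Pbrm1-fl, Arid1a-fl or Arid1b-fl), which the same Cre disrupted only in the cells it reached. The high class held 5 control, 2 Pbrm1-fl, 3 Arid1a-fl and 2 Arid1b-fl libraries, and the low class held 7, 1, 2 and 2. The hSS1 libraries were 5 control and 4 Pbrm1-fl. The study's methods give an age at injection and an age range for its mice as a whole, and the labels give no age for a single tumor.

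A cell that divides copies its DNA, segregates it on a spindle and splits, and the genes for these steps are switched on together, largely through E2F factors early in the cycle and through the DREAM and B-Myb complexes later. Because these genes move with Mki67 by their nature, the description below is of genes outside a list of cell cycle, replication and histone genes. In bulk tumor tissue a class difference in any gene can come from fewer cells of a type or from less RNA per cell, and these cannot be told apart.

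Mki67 ran from 417 to 804 CPM in the high class (median 611) and from 49.7 to 169 CPM in the low class (median 117). The members were chosen by these Mki67 values, which are therefore a description with no test. The library just outside the high class was Arid1a-fl replicate 5 at 405 CPM, and the one just outside the low class was Arid1b-fl replicate 2 at 178 CPM. Top2a, the other marker, lay between 179 and 465 CPM in the high class and between 14.3 and 89.6 CPM in the low class, so the classes did not overlap for it and the label held. Control tumors stood at both ends of the ranking, from 49.7 to 753 CPM of Mki67, with medians by genotype of 159 (control), 235 (Pbrm1-fl), 393 (Arid1a-fl) and 225 CPM (Arid1b-fl). Of the cell cycle genes that were tested, 518 of 556 were higher in the high class, with a median log2 difference of 0.97, and 321 (57.7%) passed the threshold used below, which is read as nothing more than the ranking itself. Ccnb1, the mitotic cyclin, had medians of 41.4 against 7.37 CPM, and Pcna, the replication clamp, 78.9 against 37.3 CPM. The cyclin kinase inhibitor Cdkn1a had medians of 55.1 and 93.2 CPM, with overlapping ranges (22.9 to 118 and 23.2 to 237 CPM).

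**Figure D1:**
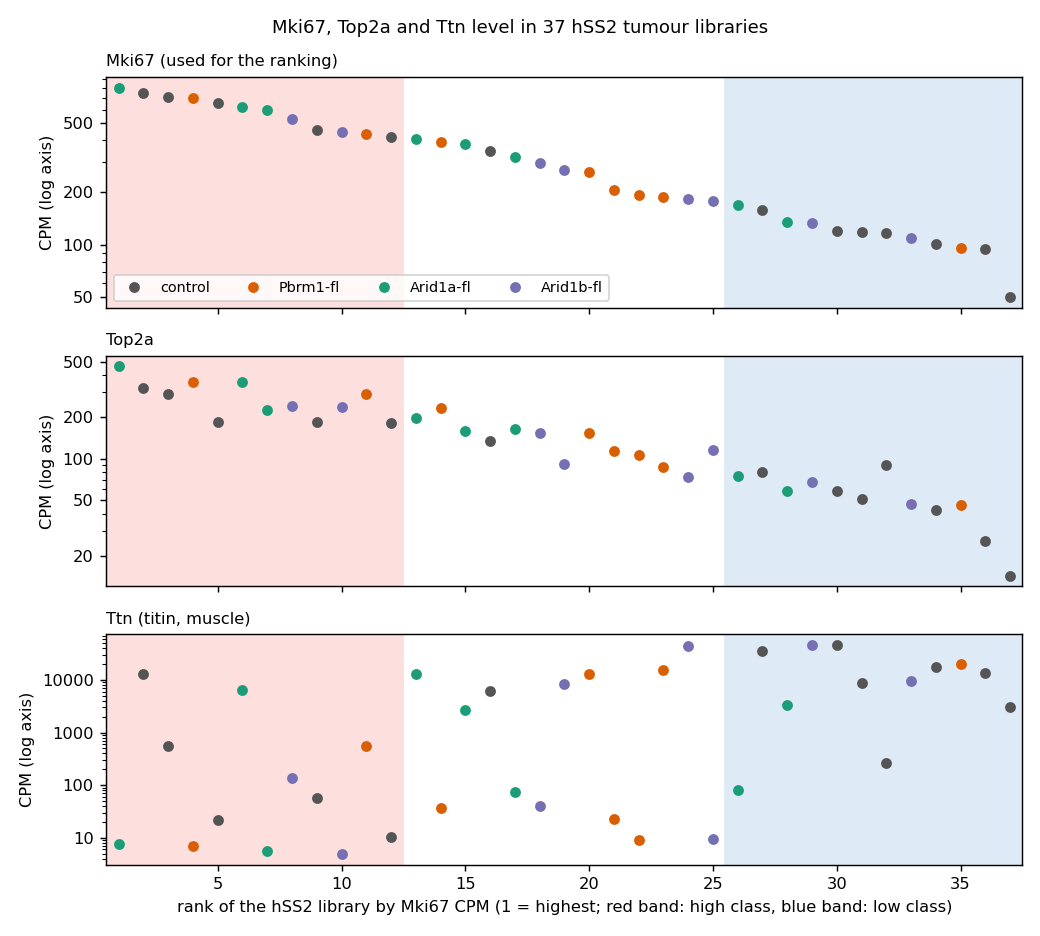
Mki67, Top2a and Ttn level (CPM, log axes) in the 37 hSS2 libraries, each point 1 library colored by genotype, in order of Mki67 from rank 1, with the high class in the red band and the low class in the blue band. Top2a follows the ranking (179 to 465 against 14.3 to 89.6 CPM), whereas Ttn spans 4.83 to 13257 CPM in the high class and 80.5 to 47265 CPM in the low class.

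The classes also differed in the level of muscle RNA. Ttn, which encodes the muscle protein titin, had a median of 39.5 CPM in the high class and 11790 CPM in the low class. It exceeded 500 CPM in 4 high and 10 low libraries. The high ones were control replicate 6 (13257 CPM), Arid1a-fl replicate 8 (6531 CPM), Pbrm1-fl replicate 4 (562 CPM) and control replicate 2 (547 CPM). The summed level of 32 skeletal muscle markers was 29.03 to 29260 CPM in the high class (median 371) and 249 to 111800 CPM in the low class (median 25170), with no marker absent. Log2 Ttn CPM was therefore a covariate in each fit, beside genotype. Few high libraries reached the Ttn levels of most low ones, so the adjusted differences lean on those few. Leukocyte and stromal lists shifted too. The 27 macrophage markers summed to 136 to 1446 CPM (median 399) against 153 to 1464 CPM (median 682). The 19 neutrophil and mast cell markers had medians of 115 and 268 CPM, and the 26 fibroblast markers 1411 and 2272 CPM. The 28 endothelial markers went the other way, with medians of 1058 and 762 CPM. Markers of T and NK cells (28 genes) summed to 14.2 to 39.7 CPM against 18.4 to 140 CPM, and those of keratinocytes (16 genes) to 6.20 to 14 CPM against 8.59 to 33.5 CPM, with Ivl and Flg at 0 in all 24 libraries. The 16 B and plasma cell markers summed to 6.95 to 45.3 CPM in the high class (median 19.4) and 3.05 to 2712 CPM in the low class (median 27.6). In the low class control replicate 4 (2712 CPM) and Pbrm1-fl replicate 1 (794 CPM) stood far above the rest. Summed medians were 932 and 1417 CPM for 22 adipocyte markers, 753 and 1264 CPM for 18 pericyte and smooth muscle markers, 557 and 583 CPM for 17 Schwann cell and nerve markers, and 1399 and 1160 CPM for 21 bone and cartilage markers. The 15 erythroid and platelet markers had medians of 88.6 and 142 CPM, but ranged from 40.6 to 44910 CPM in the high class and from 23 to 987 CPM in the low class. Arid1b-fl replicate 5 (44910 CPM), Arid1a-fl replicate 1 (3974 CPM) and control replicate 3 (2017 CPM), all of the high class, lay above every low library. The part of these cells in the gene differences below was tested only as far as the covariates reach.

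**Figure D2:**
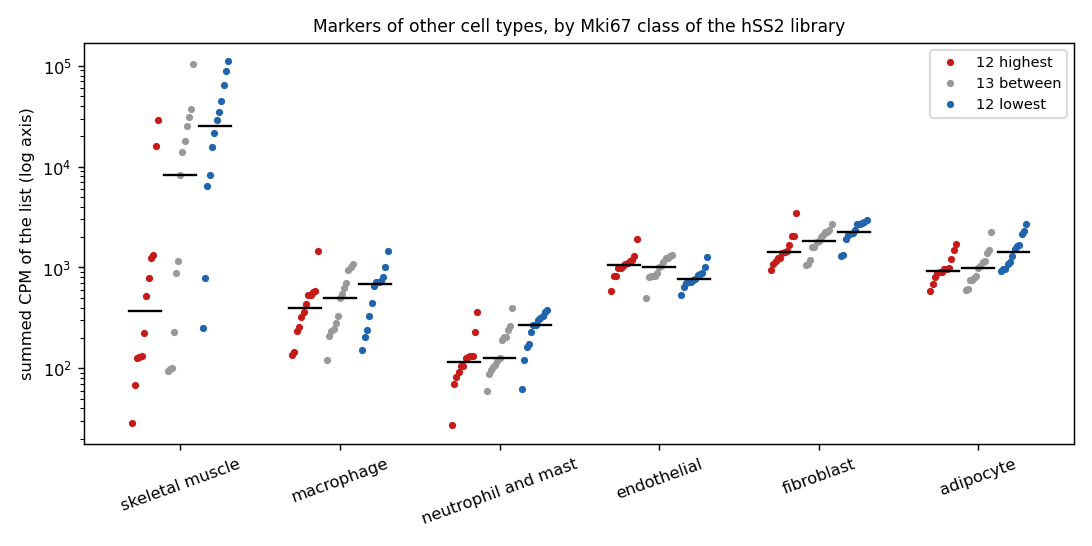
Summed CPM of 6 marker lists (log axis) in the 12 highest, 13 intermediate and 12 lowest hSS2 libraries by Mki67, each point 1 library and each bar a median. Muscle markers differ most (medians 371 and 25170 CPM), macrophage and fibroblast markers less, and endothelial markers are higher in the high class.

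Library totals were 12681941 to 19568596 counts in the high class and 10613976 to 18908411 counts in the low class. They were 14542773 to 21294657 counts in the libraries between and 10137668 to 14130024 counts in hSS1. Mitochondrially encoded genes took 1.47 to 2.72% of counts in the high class and 1.61 to 3.65% in the low class. Pbrm1 ran from 94.1 to 134 CPM in hSS2 Pbrm1-fl libraries and from 180 to 324 CPM in hSS2 controls. The library labelled control replicate 9, a member of the high class, held 254 CPM of Arid1a, within the Arid1a-fl range of 239 to 288 CPM and below the next control at 361 CPM. Without it 195 genes passed the test described next. Arid1b-fl replicate 4, in neither class, held 348 CPM of Arid1b, above the control median of 319 CPM.

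The question was which genes, beyond the cell cycle, rose or fell with proliferation. Of 17751 genes tested outside the cell cycle list, 192 (1.08%) differed between the classes at an adjusted p under 0.05, 128 higher (0.721%) and 64 lower (0.361%) in the high class. The leading higher genes included Lockd, a noncoding RNA, the nuclease gene Ankle1 and the spindle gene Gpsm2, and enzymes of cholesterol, serine and folate metabolism were among the rest. The lower genes included the Polycomb genes Ezh1, Phf1 and Cbx7 and the vitamin B12 carrier gene Tcn2. The test was edgeR's quasi-likelihood F-test with genotype and log2 Ttn CPM as covariates. Benjamini-Hochberg adjustment ran over all 18307 genes tested, the 556 cell cycle genes included. Since 321 of those 556 passed, the 0.05 rate of false calls holds for all calls together. Among the 192 alone the share of false calls can be higher than 0.05. Outside the cell cycle list 2197 genes (12.4%) had an unadjusted p under 0.05. Since the classes came from a gene measured in the same libraries, the adjusted p-values describe an association with Mki67 in these 24 tumors, not a treatment. The Ttn covariate set the count of calls: without it 2049 genes passed, 957 higher and 1092 lower, and 148 of the 192 were among them. The DESeq2 Wald test with the same covariates called 484 genes, 220 higher and 264 lower, of which 189 were shared.

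Of the 128 higher genes, 105 were protein coding, 21 had another biotype and 2 had no symbol. Their log2 differences ran from 0.35 to 3.23 (median 1.03). In 20 of them the CPM ranges of the classes did not overlap, against 28 (0.158%) of all genes tested. The 64 lower genes, 56 of them protein coding, had differences from -2.68 to -0.35 (median -1.04), and in none of them were the classes separate. The sample titles hold a number, read here as a mouse number, whose 3 ranges are a possible batch. Within these ranges 0, 15 and 0 genes passed, in fits of 5 against 5, 3 against 4 and 4 against 3 libraries. These fits were added after the data were seen, and 3 of the 15 genes were among the 192. With log2 Ptprc and Pecam1 CPM added, as levels of leukocyte and endothelial RNA, 97 higher and 35 lower genes still passed.

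The promoters of the leading higher genes are shown because a cell cycle element can be looked for in them directly. Among the 12 higher genes with the smallest adjusted p, 7 had a promoter in the RefSeq table (GRCm38.p6, 250 bases before to 50 after the start). In 4 of these, Lockd, Ankle1, Gpsm2 and Fbxo48, the window held TTTGAA, the core of the CHR element of late cell cycle promoters, or GGCGGGAA, an E2F type site, on either strand. They lie at chr6:134928842-134929141 (+), chr8:71405762-71406061 (+), chr3:108722250-108722549 (-) and chr11:16951125-16951424 (+) and read as follows, 5′ to 3′, with these motifs in capitals.
Lockd: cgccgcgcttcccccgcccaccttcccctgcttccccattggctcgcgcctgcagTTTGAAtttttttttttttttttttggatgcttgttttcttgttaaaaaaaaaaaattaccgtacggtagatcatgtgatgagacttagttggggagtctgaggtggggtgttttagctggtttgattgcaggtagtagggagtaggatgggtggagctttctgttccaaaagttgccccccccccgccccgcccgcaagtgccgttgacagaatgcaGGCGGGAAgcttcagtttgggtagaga
Ankle1: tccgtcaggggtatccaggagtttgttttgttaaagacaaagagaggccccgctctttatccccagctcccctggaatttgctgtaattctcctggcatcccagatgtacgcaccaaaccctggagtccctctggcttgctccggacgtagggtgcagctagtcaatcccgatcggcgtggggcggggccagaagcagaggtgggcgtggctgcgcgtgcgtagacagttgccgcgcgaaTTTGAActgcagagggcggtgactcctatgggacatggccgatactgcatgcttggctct
Gpsm2: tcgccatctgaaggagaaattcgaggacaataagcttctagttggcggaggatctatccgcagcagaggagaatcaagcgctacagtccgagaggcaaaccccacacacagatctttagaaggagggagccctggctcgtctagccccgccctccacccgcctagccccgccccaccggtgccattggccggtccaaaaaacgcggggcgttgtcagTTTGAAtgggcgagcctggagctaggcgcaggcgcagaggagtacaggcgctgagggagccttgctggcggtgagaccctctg
Fbxo48: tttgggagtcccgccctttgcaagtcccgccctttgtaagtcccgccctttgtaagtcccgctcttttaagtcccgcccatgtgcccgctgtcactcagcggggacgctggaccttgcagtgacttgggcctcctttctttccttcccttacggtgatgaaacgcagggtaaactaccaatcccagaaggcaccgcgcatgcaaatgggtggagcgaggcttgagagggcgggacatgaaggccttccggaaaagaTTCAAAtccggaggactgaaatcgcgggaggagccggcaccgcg
Lockd held both motifs, and the others held TTTGAA or its reverse complement. Of 9 leading lower genes with a promoter, 1 held either motif. Over all called genes that had a promoter the share with either motif was 30% for higher and 26.5% for lower genes. It was 18.2% of all genes tested, a set that here includes the cell cycle genes, of which 39.5% held either motif.

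Over all called genes, GGCGGGAA was in a promoter of 8.89% of 90 higher genes that had one and 2.04% of 49 lower genes. It was in 11.3% of 397 cell cycle genes and in 4.58% of 11693 genes tested, which include the cell cycle genes. TTTGAA was in 22.2%, 24.5%, 30.5% and 14.3% of the same sets. CCAAT, the NF-Y box, was in 57.8%, 30.6%, 58.7% and 42.6%, and CACGTG, the E box bound by MYC and related factors, in 8.89%, 14.3%, 9.82% and 11.3%. Both strands were searched. GGCGGGAA and TTTGAA cannot overlap each other, whereas CCAAT can share end bases with either and CACGTG with GGCGGGAA. Of all 32851 promoters in the table, 2.19% held GGCGGGAA, 17.9% TTTGAA, 37.4% CCAAT and 7.15% CACGTG. These shares describe letters in a window and say nothing of binding.

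Lockd (ENSMUSG00000098318, chromosome 6, 134929092 to 134956798), a long noncoding RNA downstream of the cyclin kinase inhibitor gene Cdkn1b, was the leading higher gene. It ran from 7.71 to 31.4 CPM in the high class (median 16.6) and from 1.32 to 4.99 CPM in the low class (median 3.18). All 12 high libraries lay above all 12 low ones, with a log2 difference of 2.61 ± 0.30 (SE; adjusted p 7.6e-06, edgeR). Ankle1 (ENSMUSG00000046295, chromosome 8, 71406010 to 71409904), a nuclease that acts on DNA bridges late in division, spanned 11.5 to 31.9 CPM (median 20.2) against 1.56 to 6.65 CPM (median 3.54). The classes were again separate, at 2.35 ± 0.27 (adjusted p 7.6e-06). Ankle1 is also among the study's SAT genes, those whose transcription is activated during sarcomagenesis.

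Among the other leading genes were those of the spindle and centriole. Gpsm2, which anchors the mitotic spindle to the cell cortex, ran from 31.6 to 55.98 CPM against 13.7 to 25.7 CPM, a log2 difference of 1.04 ± 0.15 (adjusted p 0.00011, edgeR). Tube1, epsilon tubulin of the centriole, ran from 5.66 to 13.1 CPM against 2.77 to 4.69 CPM (1.41 ± 0.18). Ddias, an antiapoptotic factor induced by DNA damage, ran from 6.18 to 16.8 CPM against 2.28 to 5.34 CPM (1.88 ± 0.23). For these genes, too, no high library fell among the low ones. Further genes of division or DNA repair outside the list, chosen after their values were seen, were Wdr62 (log2 difference 1.19), Traip (1.17), Atad5 (0.74), Ccp110 (0.53) and Ssrp1 (0.51), all past the threshold.

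Not all leading genes have a known role in division. Erfe, the hormone erythroferrone that lowers hepcidin, lay between 2.30 and 6.001 CPM in the high class and between 0.41 and 3.54 CPM in the low class, where only Arid1b-fl replicate 3 of the low class reached the high range, and had a log2 difference of 1.86 ± 0.29 (adjusted p 0.00022, edgeR). Fbxo48, an F-box protein, spanned 2.43 to 5.14 CPM against 0.68 to 2.42 CPM (1.48 ± 0.23). Naaladl1, a peptidase, spanned 0.90 to 3.53 CPM against 0.19 to 0.76 CPM (1.90 ± 0.31). The clone-named transcripts AC131692.1, AC093020.1 and AC137605.4 differed by 2.37, 2.45 and 2.13, at medians of 1.66 to 2.63 CPM in the high class. Across the 12 leading higher genes, 9 showed no overlap between classes, against 0.158% of all genes tested. The 12 were chosen by adjusted p in the same libraries, so this count is a description. All 12 still passed without the Ttn covariate.

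Several of these transcripts sit beside a cell cycle gene. Fsbp (ENSMUSG00000094595, chromosome 4, 11579665 to 11587591, log2 difference 1.91 ± 0.28) overlaps Rad54b on the same strand. AC137605.4, annotated as a processed pseudogene although its symbol does not show it, overlaps Kif11. AC093020.1 lies 1225 bp from Cdca2. AC131692.1 and Naaladl1 lie 2642 and 14005 bp from Cdca5, on the same strand as it. Of the 126 higher genes with a position, 13 (10.3%) were within 1000 bp of a cell cycle gene, against 1.93% of 17295 genes tested and 1.56% of 64 lower genes. Among higher genes that are not protein coding the count was 9 of 21 (42.9%), each on the same strand as its neighbor, against 2.3% of 3648. Reads of such a transcript and of the gene around it cannot be told apart in these counts, so the levels of these small transcripts are uncertain.

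**Figure D3:**
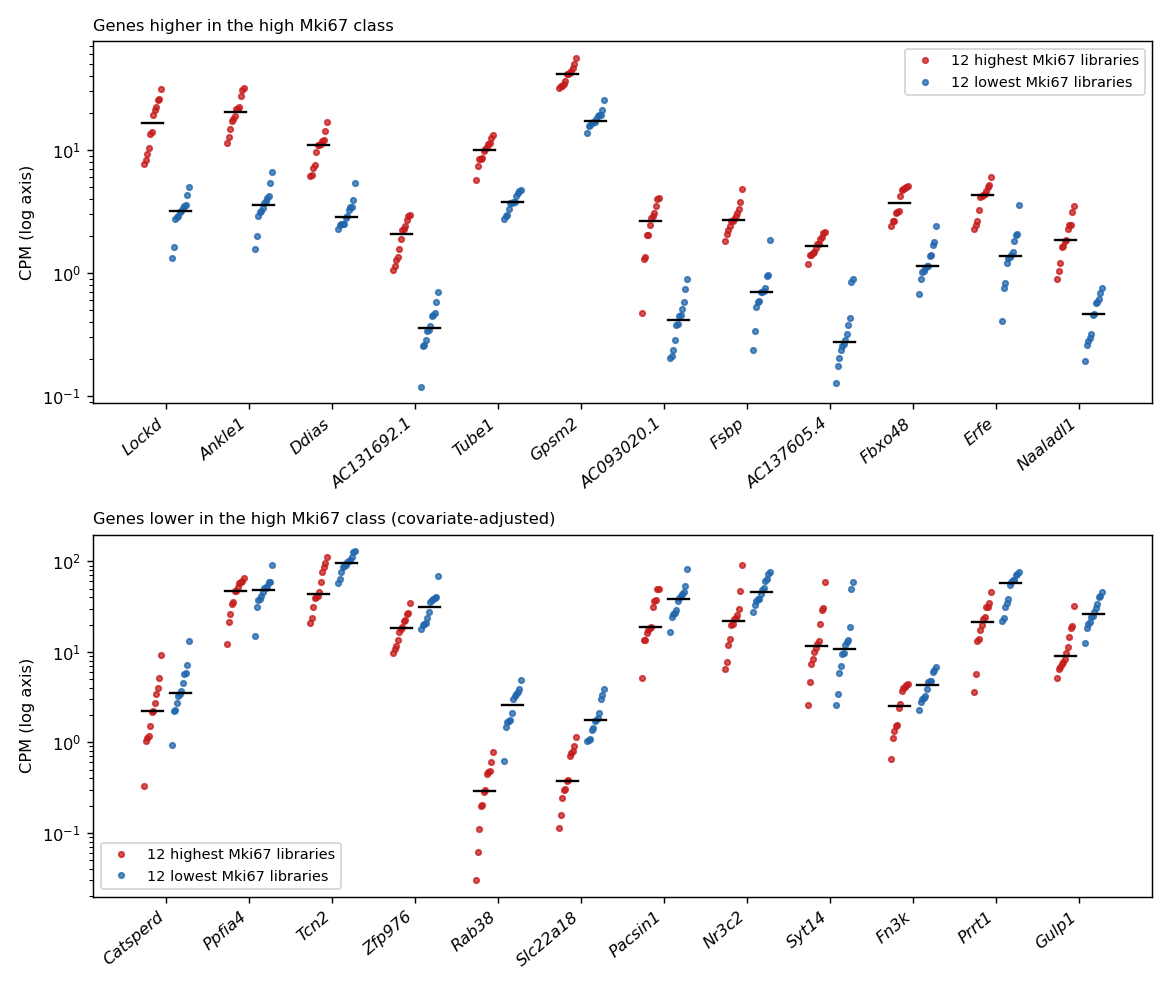
CPM (log axes) of the 12 higher and 12 lower named genes in the 12 highest (red) and 12 lowest (blue) Mki67 libraries, each point 1 library and each bar a median, with a library at 0 drawn at 0.03 CPM. For 9 of the upper genes the points of the classes do not overlap (against 0.158% of all genes tested), whereas all 12 lower genes overlap.

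Among the metabolic lists, cholesterol synthesis and nucleotide and one-carbon metabolism held called genes. Over all genes tested 0.721% were called higher. Of 23 cholesterol synthesis genes tested, 3 passed, all higher, and 22 had a positive difference (median 0.44, against -0.03 over all genes tested, 46.2% of which were positive). Insig1, which holds the sterol sensor SCAP in the endoplasmic reticulum, ran from 22.6 to 65.0 CPM against 13.95 to 25.98 CPM, a difference of 1.01 ± 0.21 (adjusted p 0.0066, edgeR). Dhcr7 (0.63 ± 0.15), which acts in the last step of a branch of the pathway, also rose. Insig1 lost the call without Arid1a-fl replicate 8 (adjusted p 0.18) and Dhcr7 without control replicate 6 (adjusted p 0.0999).

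Of 34 nucleotide and one-carbon genes, 3 passed, all higher (against 0.721% of all genes tested), and 32 were positive (median 0.34). Psat1, of serine synthesis, ran from 56.6 to 178 CPM against 14.6 to 82.4 CPM, and only control replicate 1 of the low class reached the high range (1.31 ± 0.31, adjusted p 0.018, edgeR). Mthfd2, a mitochondrial folate enzyme, ran from 8.86 to 38.4 CPM against 2.91 to 9.16 CPM (1.42 ± 0.34). Ctps, which makes CTP, spanned 18.2 to 78.2 CPM against 16.2 to 31.1 CPM (1.05 ± 0.24). Without control replicate 6 Psat1 had an adjusted p of 0.082 and Mthfd2 one of 0.095, and with Ptprc and Pecam1 added Psat1 had one of 0.062. Of 33 chaperone and proteasome genes 32 were positive (median 0.34) and of 49 splicing factors 38 were (median 0.22), with 0 called by edgeR in either list and 12 and 20 at an unadjusted p under 0.05. In 40 ribosome biogenesis genes, 34 were positive (median 0.21), none passed, and 5 had an unadjusted p under 0.05.

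Each of the Hedgehog, FGF and Wnt lists held 1 called gene, where 1.08% of all genes tested passed. Cdon, a cell surface co-receptor for Hedgehog ligands, ran from 423 to 3123 CPM in the high class (median 1007) and from 161 to 476 CPM in the low class (median 377). In the libraries between the classes it ran from 287 to 3182 CPM, with a median of 1310 CPM, above that of the high class. Only Arid1b-fl replicate 5 of the high class fell within the low range, and the difference was 1.55 ± 0.31 (adjusted p 0.0046, edgeR). It was the single call among 14 Hedgehog genes, 7 of them positive. Fgf8, a growth factor of limb and brain development and a SAT gene, had medians of 9.24 and 2.03 CPM (1.40 ± 0.36, adjusted p 0.039), and kept its call in 9 of 24 fits with 1 library left out. With Ptprc and Pecam1 added it had an adjusted p of 0.12. Of 56 Wnt genes 14 were positive (median -0.37), and the one that passed, the transcription factor gene Tcf7l2, was higher (0.63 ± 0.17, adjusted p 0.044). Its call was kept in 8 of 24 such fits.

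Polycomb complexes silence developmental genes, PRC2 through methylation of histone H3 and PRC1 through H2A ubiquitylation. Of 38 such genes outside the cell cycle list, 3 passed and all were lower. Over all genes tested 0.361% were called lower. Ezh1, the PRC2 methyltransferase typical of resting cells, ran from 28.4 to 64.8 CPM in the high class and from 57.2 to 87.1 CPM in the low class (-0.52 ± 0.13, adjusted p 0.031, edgeR). All 12 high libraries lay under the low median of 80.1 CPM. Cbx7, a PRC1 chromodomain protein, had medians of 31.8 and 64.0 CPM (-0.99 ± 0.23), and Phf1, a PRC2 accessory protein, 45.5 and 61.4 CPM (-0.70 ± 0.15). The list as a whole stood at a median of 0.00, with 19 of 38 positive. Ezh1 kept its call in 19 of 24 fits that left out 1 library, and its adjusted p was 0.20 without Arid1a-fl replicate 8. Cbx7 kept its call in 22 of 24 such fits, with an adjusted p of 0.11 without control replicate 6. Phf1 kept its call in all 24.

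Some of the 12 leading lower genes rested on the Ttn covariate. Catsperd, a sperm ion channel subunit, ran from 0.33 to 9.23 CPM against 0.94 to 13.2 CPM, and its difference of -1.996 ± 0.26 (adjusted p 3.0e-05, edgeR) was -0.77 (adjusted p 0.13) without the Ttn covariate. Ppfia4, a liprin scaffold protein, and Syt14, a synaptotagmin, had nearly equal class medians (46.9 and 48.2 CPM, 11.7 and 10.8 CPM) and adjusted differences of -1.17 ± 0.21 and -1.82 ± 0.40. Without the covariate they stood at -0.27 and -0.20. Of the 12, 7 passed without it. Those with lower raw levels as well included Rab38, a GTPase of melanosome and lysosome related traffic, at 0 to 0.79 CPM against 0.62 to 4.88 CPM (-2.68 ± 0.51, adjusted p 0.0027). Only Arid1a-fl replicate 7 of the low class lay within the high range of Rab38.

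Other lower genes also had lower medians in the high class, although their ranges overlapped and raw CPM is not adjusted for Ttn. Tcn2, the transporter of vitamin B12 in blood, ran from 20.6 to 112 CPM against 58.3 to 130 CPM, and 10 of 12 high libraries were under the low median (-1.30 ± 0.24, adjusted p 0.0021, edgeR). Slc22a18, a transporter of an imprinted region, had medians of 0.38 and 1.75 CPM (-2.17 ± 0.43). Zfp976, a zinc finger gene, had 18.3 and 31.7 CPM (-1.35 ± 0.25). Pacsin1, an endocytic protein of neurons, had 18.6 and 37.99 CPM (-1.49 ± 0.31), and Prrt1, a synaptic membrane protein, 21.5 and 57.6 CPM (-1.73 ± 0.41). Nr3c2, the mineralocorticoid receptor, had 21.7 and 45.6 CPM (-1.51 ± 0.33). Gulp1, an adaptor for engulfment of dying cells, had 9.06 and 26.1 CPM (-1.67 ± 0.40), and Fn3k, which repairs glycated proteins, 2.54 and 4.30 CPM (-1.51 ± 0.33). C1ra, a complement protease, was the call among 18 complement genes, where 0.361% of all genes tested were called lower. C1ra had medians of 33.6 and 103 CPM (-1.49 ± 0.37, adjusted p 0.027, edgeR). With Ptprc and Pecam1 added, 4 of these lost the call by edgeR, with adjusted p-values of 0.070 (Nr3c2), 0.068 (Prrt1), 0.10 (Gulp1) and 0.10 (C1ra).

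The collagen, MHC class II, interferon-stimulated and macrophage lists held 0 genes called by edgeR with Ttn in the fit, and their medians depended on that term. Among 37 collagen genes the median difference was -0.13, and -0.68 without the Ttn covariate. It was -0.50 and -2.07 for 9 MHC class II genes, -0.09 and -0.92 for 42 interferon-stimulated genes, and 0.59 and -0.47 for 26 macrophage markers, which turned in sign. Numbers at an unadjusted p under 0.05 were 3, 1, 1 and 0. Plag1, an oncofetal zinc finger gene, did not pass (-2.16 ± 0.62, adjusted p 0.070), although all 12 high libraries, at 1.65 to 20.1 CPM, lay under the low median of 38.8 CPM.

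The study's MAT genes are those active both in the cell of origin and in the tumor. Over all 17751 genes tested 192 (1.08%) passed and 46.2% were positive, and the SAT and MAT counts stand beside those shares. Of 170 SAT genes tested, 2 were higher (Fgf8 and Ankle1) and 0 lower, 61 were positive, and the median was -0.25. Of 341 MAT genes, Gnptab and Lmf2 were higher and Git1 lower, 158 were positive, and the median was -0.03. The raw median of Git1 did not fall, at 106 CPM in the high class and 102 CPM in the low class. With 1 library left out, calls were kept in 20 (Gnptab), 11 (Lmf2) and 21 (Git1) of 24 fits.

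**Figure D4:**
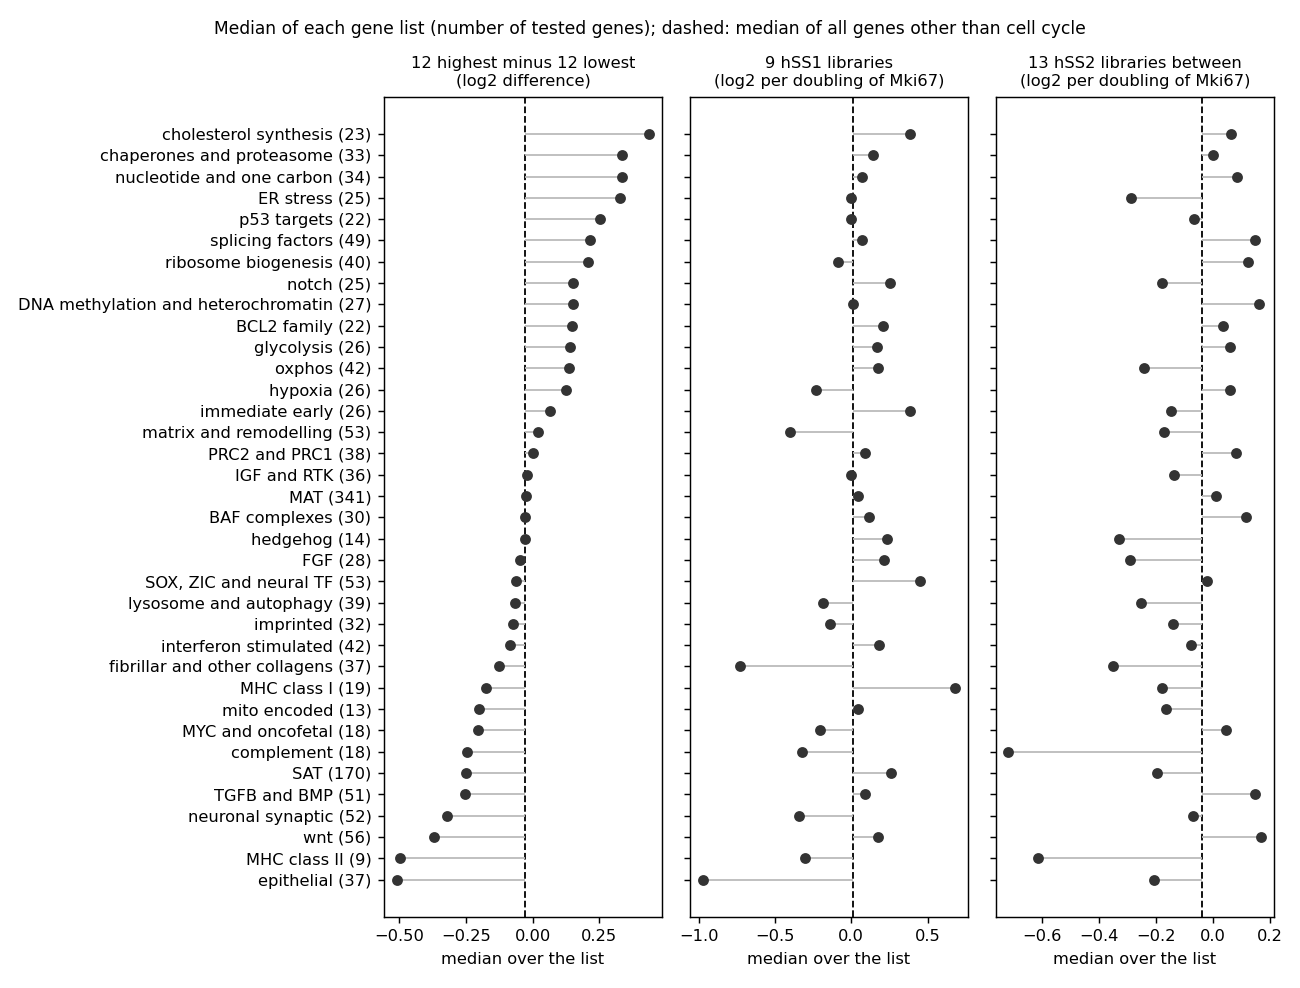
Median of each gene list (tested genes in brackets): log2 difference of high minus low class, and slope in log2 per doubling of Mki67 in 9 hSS1 and in 13 intermediate hSS2 libraries, with a dashed line at the median of all genes outside the cell cycle list. Cholesterol synthesis lies to the right of the line in each panel (0.44, 0.38 and 0.06), whereas ribosome biogenesis lies to the left of it in hSS1 (-0.09).

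Libraries outside the class comparison were fitted separately. The hSS1 libraries were not ranked, whereas the 13 hSS2 libraries between the classes hold that place through the ranking. In the 9 hSS1 tumors, whose Mki67 ran from 231 to 1072 CPM, and in the 13 hSS2 tumors between the classes, each gene was fitted as a slope per doubling of Mki67, with genotype and log2 Ttn CPM as covariates. With edgeR, 0 of 18874 genes passed in hSS1 (777, or 4.12%, at an unadjusted p under 0.05) and 0 of 21581 between the classes (1345, or 6.23%, unadjusted). DESeq2 called 71 and 114. With so few libraries a count of 0 does not show that slopes were absent. No cell cycle gene passed either, out of 567 in each fit, although 88.5% and 87.7% of them had a positive slope.

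The direction of the called genes in those libraries was uneven. Of the 128 higher genes, 113 (88.3%) had a positive slope in hSS1, against 50.9% of all genes, with a median of 0.40. Between the classes 96 (75%) did, against 45.8%, with a median of 0.26. At an unadjusted p under 0.05 and positive were 17 in hSS1 (13.3%, against 2.24% of all genes) and 26 between (20.3%, against 3.16%). The 64 lower genes differed less from the rest: 37 of 63 (58.7%, against 49.1%) had a negative slope in hSS1 and 37 of 64 (57.8%, against 54.2%) between. Genes are not independent of each other, so these shares carry no test.

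All 12 leading higher genes had a positive slope in both sets of libraries. None of these slopes passed adjustment. The slope of Ankle1 was 1.20 ± 0.25 (SE) per doubling of Mki67 in hSS1 and 0.63 ± 0.27 between the classes, that of Lockd 1.10 ± 0.44 and 0.71 ± 0.39, and that of Gpsm2 0.52 ± 0.19 and 0.75 ± 0.18. Cdon, by contrast, stood at 0.42 ± 0.70 and -0.67 ± 1.01. Of the 12 leading lower genes 9 and 5 had a negative slope. Rab38 stood at 1.00 ± 1.12 and 0.25 ± 1.15, and Ezh1 at -0.37 ± 0.29 and -0.04 ± 0.19. The other Polycomb calls were Cbx7, at -0.62 ± 0.46 and 0.04 ± 0.37, and Phf1, at 0.11 ± 0.30 and -0.17 ± 0.28. Cholesterol synthesis genes were positive in 22 of 23 in hSS1 (median 0.38) and in 16 of 23 between (median 0.06). Nucleotide and one-carbon genes were positive in 19 and 23 of 34, and ribosome biogenesis genes in 13 and 26 of 40. Among the metabolic genes described above, slopes in hSS1 and between were -0.34 ± 0.37 and 0.40 ± 0.23 for Ctps. They were 0.34 ± 0.43 and -0.14 ± 0.31 for Psat1, and 0.25 ± 0.30 and 0.07 ± 0.30 for Mthfd2. Insig1 had 1.15 ± 0.51 and 0.04 ± 0.22, and Dhcr7 0.30 ± 0.23 and 0.36 ± 0.15.

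**Figure D5:**
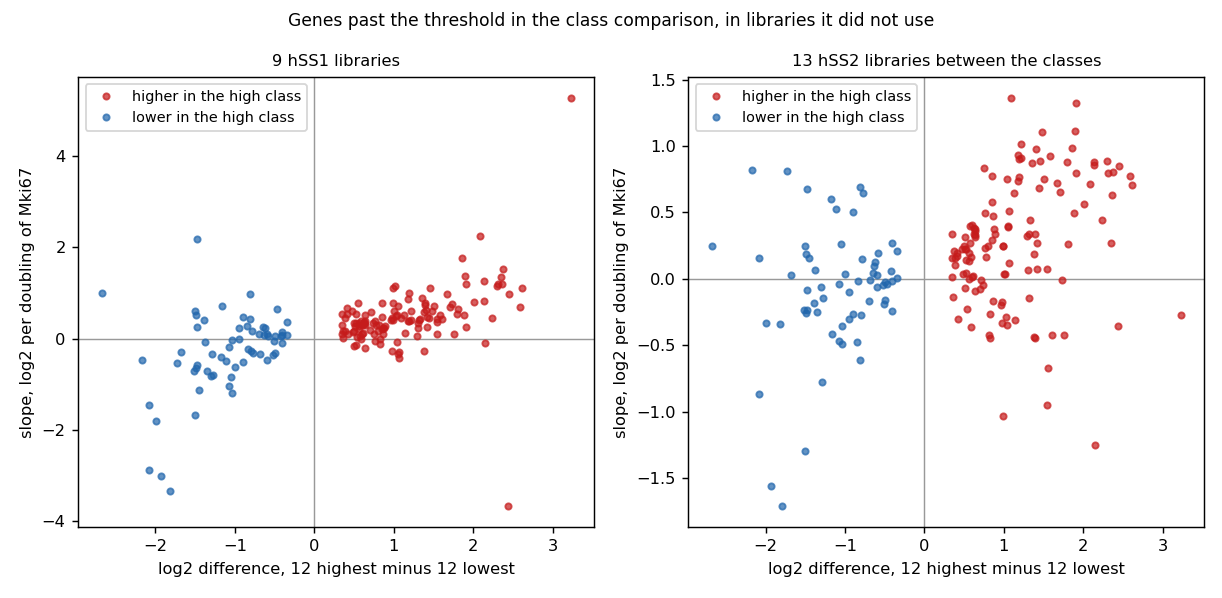
Each gene past the threshold in the class comparison (128 higher in red, 64 lower in blue, 63 of the latter tested in hSS1), with its log2 difference against its slope per doubling of Mki67 in 9 hSS1 libraries and in 13 hSS2 libraries between the classes. Most red points lie above 0 (113 and 96), while blue points lie on both sides of it (37 below in each panel).

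A direct test of whether slopes differed between hSS1 and hSS2 covered 22563 genes in all 46 libraries. It called 2 (0.00886%), both with a lower slope in hSS1, and 1432 (6.35%) had an unadjusted p under 0.05. These 2, Gm2792 and Plb1, were named after their values were seen. Gm2792 differed by -4.42 ± 0.76 (adjusted p 0.024, edgeR) and Plb1, a phospholipase, by -6.84 ± 1.26 (adjusted p 0.037). In both, the highest hSS1 level was in 1 library: Pbrm1-fl replicate 1, with the lowest Mki67 of hSS1, held 35.8 CPM of Gm2792 and 34.1 CPM of Plb1, while the next hSS1 library held 12.3 and 1.19 CPM. Neither gene passed when any 1 of the 4 hSS1 Pbrm1-fl libraries was left out, with 0 genes passing without replicate 1, 2 or 3 and 1 other gene without replicate 4. Both passed with any 1 of the 5 hSS1 controls left out, when 2 to 29 genes did.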

How the data were processed

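RNA was measured in 46 mouse tumors, of which 37 hSS2 and 9 hSS1 libraries were used. The authors deposited raw counts per Ensembl gene as 1 table per background, from ribosomal RNA-depleted, stranded libraries that were aligned to mm10 with STAR 2.7.11 and counted with featureCounts 1.6.3 per the submitters' processing notes. The annotation release and the strand setting were not given in the sources used here. Entries were whole numbers and unnormalized. Groups came from the sample labels. Symbols and positions were taken from GENCODE M21 (GRCm38), which named 91.4% of hSS2 and 91.2% of hSS1 identifiers. Every identifier counted toward the library total. No 2 libraries of a group agreed within counting noise. Each title holds its own number, read here as a mouse number, although the titles do not say what it numbers.

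The classes were the 12 highest and 12 lowest hSS2 libraries by Mki67 CPM. Counts were filtered with filterByExpr, scaled by TMM and tested two-sided with the quasi-likelihood F-test of edgeR 4.0.16 in R 4.3.3 (robust fit). Genotype and log2 Ttn CPM were covariates. Benjamini-Hochberg adjustment ran over all genes tested, cell cycle genes included, with a threshold of 0.05. An SE is the absolute log2 difference divided by the root of F. DESeq2 1.42.0 was an alternative, as were other scalings, filters, covariates, rankings and each library left out. The fits were tested on simulated data. Library totals were 10137668 to 21294657 counts, and precision was taken from the spread between libraries. The hSS1 and intermediate fits, and their difference, used the slope on log2 Mki67 CPM.

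For naming, genes past the threshold were ordered by adjusted p in each direction and the first 12 taken, provided that the log2 difference was 1 or more in size, that CPM averaged 1 or more over the 24 libraries, and that the gene was neither a cell cycle or sex-linked gene nor a Gm, Rik or pseudogene symbol. Up to 3 genes from each of 49 gene lists, again by adjusted p, could be named too. The members, lists and rules were chosen with earlier results of these data known. Of the list genes named by this rule, those not described in the text are not reported here. The numbers in the titles, read as mouse numbers, fall into ranges (under 1000, 1000 to under 2000, 2000 and over), used as a possible batch. Promoter sequences are from RefSeq (GRCm38.p6), matched by symbol. Python 3 scripts drew the figures.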

Additional observations from a re-analysis of the deposited data

Results flagged for a closer look

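Among 15 combinations of group and marker (Mki67, Top2a or Ttn CPM, in groups of 4 to 10 libraries), a single library stood far from the rest of its group in 2 of them, both for Ttn in hSS1, and chance alone flags about 1 in 20. In hSS1 Pbrm1-fl, replicate 4 held 110.1 CPM of Ttn, where the others held 5.82 to 10.1 CPM. In hSS1 control, replicate 2 held 3831 CPM, where the others held 3.21 to 584 CPM. Ttn is a covariate of the hSS1 fits, which called 0 genes with either library left out.

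The slopes of Gm2792 and Plb1 on Mki67 differed between the backgrounds (hSS1 minus hSS2 -4.425 and -6.84 log2 per doubling, edgeR adjusted p 0.024 and 0.037). The highest hSS1 level of both was in Pbrm1-fl replicate 1, and both calls were lost without any 1 of the 4 hSS1 Pbrm1-fl libraries. Plb1 was at 0 in 3 of 9 hSS1 libraries.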

How the results depend on the processing

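The 192 genes of the class comparison numbered 484 with the DESeq2 Wald test, 2049 without log2 Ttn CPM, 784 with all 37 libraries in 3 classes and 1276 as a slope over all 37 libraries. They numbered 124 with the 10 highest against the 10 lowest, and 66 at an adjusted p under 0.01. Leaving out 1 library gave 114 to 295, the lowest without control replicate 2, 117 without control replicate 6 and the highest without control replicate 1. Counts within 1.5 times of 192, with the genes shared, came from DESeq2 size factors (192, 175 shared), no filter (141, 111 shared), no genotype term (146, 122 shared), a mouse number range term (189, 147 shared), Ptprc and Pecam1 terms (216, 132 shared), and ranking by Top2a (254, 104 shared), by the cell cycle list (149, 107 shared) or by TMM-scaled Mki67 (192, 192 shared). A slope over the 13 control tumors, another form of fit, called 130 genes, of which 59 were shared. The next values were chosen after seeing the data. Within the mouse number ranges 0, 15 and 0 genes passed, with 5 against 5, 3 against 4 and 4 against 3 libraries. Among the 4 high and 10 low libraries with at least 500 CPM of Ttn, 391 passed (197 higher, 194 lower), 102 of them shared.

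The hSS1 count of 0 became 15 without genotype and 71 with DESeq2. The count between the classes became 1 without log2 Ttn CPM, 1 without genotype and 114 with DESeq2. Leaving out 1 library gave 0 to 0 in both. The difference between backgrounds gave 5 genes without a filter and 0 to 29 with 1 hSS1 library left out, the highest without control replicate 2, and 0 without Pbrm1-fl replicate 1, 2 or 3. Why these counts moved was not tested, except that fewer libraries entered some fits. No paired analysis was possible because the labels give no pairing and replicate numbers only name samples. Of named gene values under these settings other than those chosen later, 109 lost a call, 191 gained one, 18 changed sign without having been called and 2058 did none of these. No called gene changed sign. Muscle content differs between the classes and limits every value that depends on the Ttn term.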

Other observations

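Several gene groups differed in direction between the sets of libraries. Of 42 oxidative phosphorylation genes, 37 were positive in the class comparison (median 0.14), 36 in hSS1 (median slope 0.17) and 1 between the classes (median slope -0.24), with 0 called in any of them. Of 19 MHC class I genes, 6, 15 and 5 were positive (medians -0.17, 0.68 and -0.18). Of 56 Wnt genes, 14, 38 and 35 were positive (medians -0.37, 0.18 and 0.17). Of 26 endothelial markers tested, 21, 4 and 2 were positive (medians 0.46, -0.45 and -0.53). Over all genes outside the cell cycle list 46.2%, 50.9% and 45.8% were positive. The differences between these sets were not tested for the lists.

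Epithelial genes, of interest in a tumor that can be biphasic, had medians of -0.51, -0.97 and -0.21 over 37 tested, and 8, 7 and 12 were positive, with 0 called in the class comparison by edgeR and 2 at an unadjusted p under 0.05. Of 13 mitochondrially encoded genes 1 was positive in the class comparison (median -0.20), where 0 passed or had an unadjusted p under 0.05.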
